A study of Mus musculus with 6 samples.

Results

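The genes examined are the potassium channel genes of the mouse brain, taken as every gene whose symbol starts with Kcn, except Kcnj10, Kcnj13 and Kcne2, with at least 100 unique molecular identifiers (UMIs) summed over the 6 sections. Of 93 such symbols among 19465 genes counted, 83 were members, 3 were the named exceptions and 7 had fewer UMIs (Kcnk18, Kcnk16, Kcnv2, Kcnj1, Kcne1, Kcnmb3 and Kcnj15). The study profiled formalin-fixed, paraffin-embedded coronal sections from brains of male C57BL/6J mice with Visium, with 2 sections each from mice at postnatal day 21 (P21), adult mice of 12 to 15 weeks and aged mice of 28 months, and no treatment or engineered allele. P21 and adult sections lay directly on the slide and were counted with Space Ranger 2.0.0. Aged sections were transferred with a CytAssist instrument to a later slide version and counted with Space Ranger 3.1.1. The study's methods also describe an enhanced probe design for the later version. Age and platform, probes included, therefore cannot be told apart in any aged vs. adult comparison. The comparisons ask how members differ between P21 and adult and between aged and adult brains, and whether those differences depend on the brain region.

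Potassium channels let potassium leave or enter the cell along its gradient, and by doing so set the resting potential, end the action potential and pace repetitive firing. Voltage-gated channels are tetramers of pore-forming subunits, whose families are named Kv, and are joined by silent subunits, which form no current alone, and by cytoplasmic or membrane-bound auxiliary subunits. Calcium- and sodium-activated channels follow firing, inward rectifiers hold the membrane near rest or answer G proteins and ATP, and channels with a pair of pore domains per subunit carry leak current. The 83 members held 61 pore-forming subunits, 9 silent subunits and 13 auxiliary or regulatory subunits, so that the symbol alone does not make a member a channel pore.

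The members held 2364927 UMIs, 0.556% of all, and 64 of the 83 were detected in at least 10% of spots. Sections held between 42422997 and 106783660 UMIs, in 20336 spots kept in all, with a median of 12074.5 to 25535 UMIs per spot. Spots were grouped from genes that included no member and named by marker panels. The 6 main regions were the striatum (STR), thalamus (TH), cortex (CTX), fiber tracts (FT), hypothalamus (HY) and hippocampus (HP), and small zones were the reticular thalamus (RT), habenula, ventricular system (VS), and meninges and vessels. A cluster of 2068 spots, 10.2% of all, led by Lypd1, Ccn3, Cyp26b1, Lmo3 and the member Kcng1, reached no panel. It entered the whole-section sums but no comparison by region. Levels are in CPM, UMIs per 1000000 UMIs of a section or region. Each gene was read by its own probes, so that levels were compared between regions and ages but not between genes. Between aged and adult sections a change in the probes of a gene would enter the difference as well. A spot covers several cells, and fewer cells of a type and less RNA per cell cannot be told apart.

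Most members were uneven across the brain. With the 6 main regions ranked by mean CPM over the 6 sections, 24 members were highest in the CTX, 13 in the HY, 13 in the FT, 12 in the STR, 11 in the TH and 10 in the HP. The leading region was the same in each of the 6 sections for 40 of the 83 members (48.2%), against 28.4% of the 15417 genes with as many UMIs, and the median coefficient of variation over the 6 regions was 45.3% for members and 25.4% for those genes. These are descriptions, since the regions come from clusters of the same spots. Defining regions from each section alone, or from spots whose neighbours share their region, left the leading region in place for 74 and 72 of the 83. Ranked with the small zones and the cluster that reached no panel, 13 members were highest in the CTX, 13 in the RT, 10 in the STR and 9 in the habenula (all 6 sections). Meninges and vessels and the cluster without a panel led for 7 each, the HP and HY for 6 each, the TH for 5, the VS for 4 and the FT for 3.

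**Figure D1:**
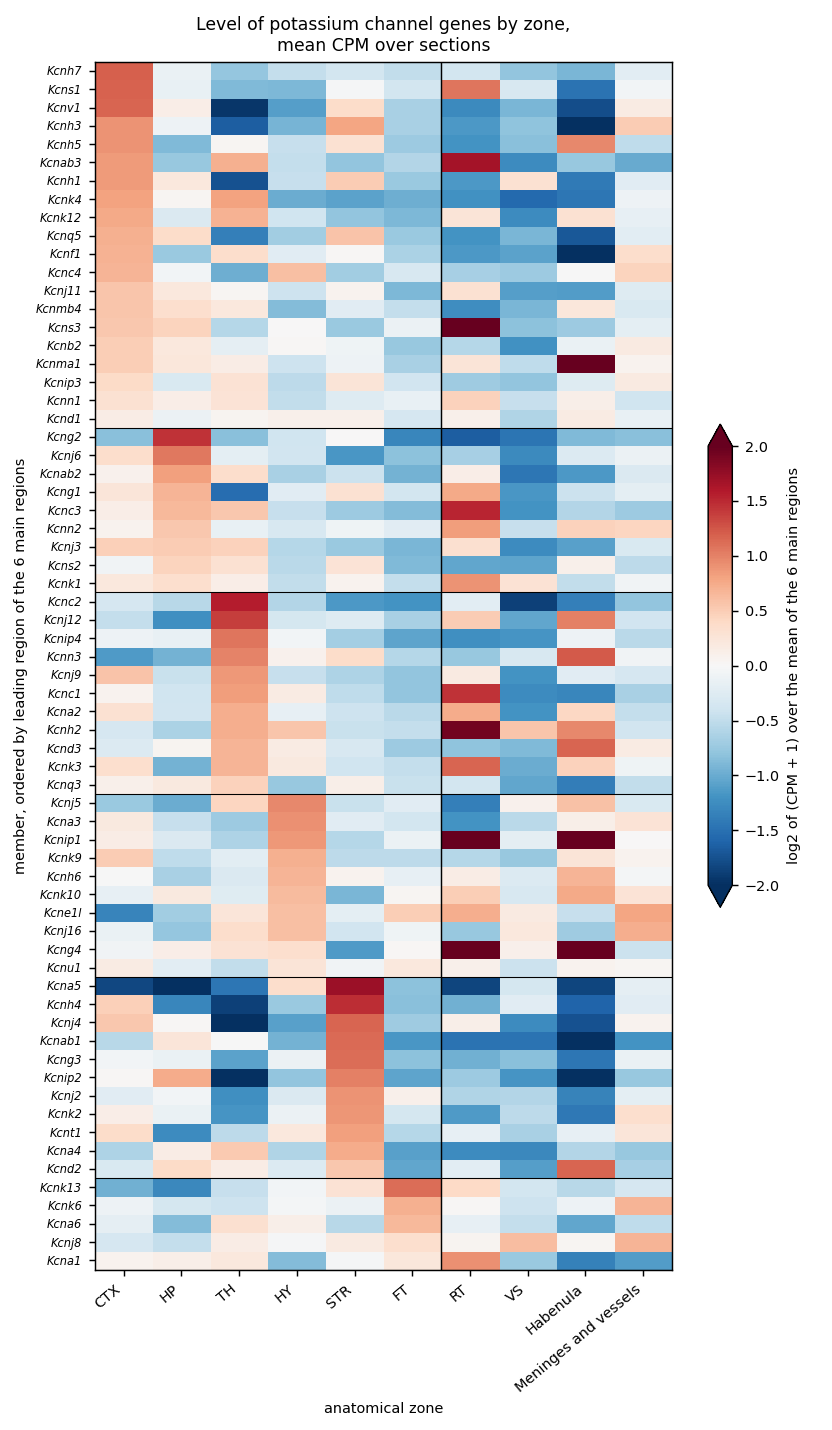
Mean CPM of 66 members with at least 5 CPM in 1 of the 6 main regions (rows), by anatomical zone (columns), as log2 of CPM plus 1 over the mean of the 6 main regions, with red for higher and blue for lower levels. Values are means of 6 sections, except for the habenula, where 5 sections entered. Rows are grouped by leading region, and Kcns3, Kcng4 and Kcnip1 in the RT and Kcng4, Kcnip1 and Kcnma1 in the habenula are among the darkest cells.

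The Kv1 group, which shapes the threshold and the axonal action potential, was spread over several regions. Kcnab2, a beta subunit that binds Kv1 pores in the cytoplasm, was highest in the HP in all 6 sections. Its level was 1049 ± 327 CPM there and 306 ± 15.8 in the FT (mean ± SD, n = 6 sections, as for the values that follow). These SDs run over sections of all 3 ages, so that they include differences between ages. Kcna2, a Kv1 pore of axons and nodes, was highest in the TH (192 ± 54.2 CPM) and Kcna3, a pore also known from lymphocytes and microglia, in the HY (70.8 ± 9.92 CPM), each in all 6 sections. Kcna5 was highest in the STR in every section, with 33.1 ± 16.7 CPM there and 12.3 ± 5.0 in the HY, the next region. Kcna2 and Kcna3, highest in different regions, are neighbours on chromosome 3 (GRCm38 annotation, chr3:107101146-107115005 and chr3:107036169-107038070, both on the plus strand). Kcnab1, a further beta subunit, led in the STR at 518 ± 73.6 CPM and within the HP was concentrated in CA1-2, at 745 ± 105 CPM against 167 ± 19.7 in CA3.

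Kv2 channels carry delayed rectifier current on the soma, and the silent subunits join them. Among silent subunits Kcnv1 (127 ± 17.5 CPM) and Kcns1 (43.4 ± 14.6 CPM) led in the CTX in every section. Kcng2 led in the HP (27.3 ± 8.08 CPM, next 9.53 ± 5.75 in the STR), where it was higher in the dentate gyrus (DG, 43.2 ± 6.23) and CA3 (35.5 ± 8.06) than in CA1-2 (8.79 ± 6.26). The silent subunits Kcns3 and Kcng4 were low in the 6 main regions and stood out in the RT, the shell of inhibitory neurons around the thalamus. Kcns3 reached 69.5 ± 27.7 CPM there against 10.7 ± 2.50 in the CTX, its highest main region, and Kcng4 105 ± 23.0 against 11.1 ± 8.19 in the HY. All RT values rest on clusters of the 6 sections together. With each section clustered alone, an RT was named in the second adult section only. Just 3 to 16 RT spots per section had only RT spots around them. In the habenula Kcng4 reached 175 ± 68.2 CPM over the 5 sections with at least 10 habenular spots (range 110.4 to 277).

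Kv3 channels end action potentials quickly and allow fast firing. Kcnc2, the Kv3.2 pore, showed the steepest thalamic lead of the named members, with 828 ± 318 CPM in the TH and 222 ± 24.8 in the CTX, and was highest there in all 6 sections. Kcnc1, the Kv3.1 pore, also led in the TH (346 ± 119.6 CPM) and was higher still in the RT (526 ± 212 CPM). Kcnc4 divided the HP, at 136 ± 30.0 CPM in the DG and 17.6 ± 9.44 in CA3. Kv4 channels carry the transient current of dendrites, and Kcnip proteins are their calcium-binding partners. Kcnip2 led in the STR (411 ± 22.0 CPM) and was lowest in the TH (51.0 ± 28.7), whereas Kcnip4 led in the TH (173 ± 21.0 CPM). Kcnip1 led in the HY among the main regions (97.3 ± 12.6 CPM) and reached 374 ± 96.0 CPM in the RT.

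Kv7 channels give the M current that damps repetitive firing. Kcnq3, a Kv7 pore, led in the TH in all 6 sections (139 ± 16.5 CPM). Of the Kcnh genes, which encode the EAG, ERG and ELK channels, Kcnh7 had the steepest cortical lead, at 187 ± 32.2 CPM in the CTX and 73.7 ± 21.0 in the HP. Within the HP its level was 239 ± 26.4 CPM in CA1-2, 24.8 ± 12.7 in CA3 and 34.5 ± 16.2 in the DG. Kcnh5 led in the CTX (165 ± 15.1 CPM) and Kcnh4 in the STR (35.5 ± 5.99 CPM), both in every section.

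Of the channels gated by calcium or sodium, Kcnma1, the BK pore, ranged from 106 ± 17.5 CPM in the FT to 233 ± 27.3 in the CTX over the main regions and reached 1119.8 ± 526 CPM in the habenula. The SK pore Kcnn3 led in the TH (76.6 ± 25.8 CPM) and Kcnn2 in the HP (95.5 ± 11.2 CPM). Kcnmb1, the BK subunit of vascular smooth muscle, was at 1.10 ± 0.309 CPM in the CTX and 27.0 ± 10.6 in the VS, and its gene lies within that of Kcnip1 on the other strand (GRCm38 annotation, chr11:33963013-33973641 within chr11:33629339-33993152). Kcnn4, a channel of blood and epithelial cells, was at 0.114 ± 0.138 CPM in the CTX and 4.30 ± 2.36 in the VS. Among inward rectifiers, Kcnj4 led in the STR (215 ± 26.0 CPM) and was lowest in the TH (20.2 ± 12.9), Kcnj12 led in the TH (136 ± 10.0 CPM, 43.0 ± 6.48 in the STR), and the G protein-gated Kcnj6 led in the HP (156 ± 45.4 CPM). Kcnj5, a G protein-gated pore best known from the heart, was highest in the HY by mean (7.86 ± 2.94 CPM) but in 4 of the 6 sections only. Among the leak channels Kcnk13 had the clearest FT lead (28.0 ± 10.1 CPM, next 15.5 ± 4.42 in the STR), in all 6 sections. Kcnk1 ranged from 106 ± 15.7 CPM in the HY to 189 ± 17.3 in the HP.

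In 1 of the adult sections the habenular cluster held 4 spots, in which the habenular markers Gpr151 and Chrna3 were at 0, so habenular values are from the other 5 sections. Moran's I, the deposited score of spatial autocorrelation made within each section by the authors' software, comes from the same counts but does not use the regions. Its median over members was 0.121 and 0.0718 at P21, 0.0938 and 0.0878 for adults, and 0.221 and 0.285 for aged mice. Over all genes listed the medians were 0.0166, 0.0113, 0.0136, 0.0127, 0.0226 and 0.0295 in the same order. The median of members was therefore above that of all genes listed in each section. Both medians were higher in aged than in other sections. Genes under the UMI limit set for members were among those listed, so that abundance was not matched in this comparison. Kcnc2 had the highest score of any member in 5 sections (0.403 to 0.706) and Kcnj4 in the second aged section (0.653).

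Age differences were first tested in whole sections, with the section as the replicate. Between P21 and adult, 7 of 83 members were called by edgeR's quasi-likelihood test, for which a gene had to change by a fold of more than 1.5 with a Benjamini-Hochberg adjusted p below 0.05. This is 8.43% of members, where 8.06% of all genes were called, 5.69% as higher and 2.37% as lower. The 4 members that were higher at P21 stayed under 5 CPM in every section. Kcnt2, a sodium-activated pore, was at 1.92 and 1.47 CPM at P21, 0.758 and 0.645 for adults and 1.14 and 1.15 for aged mice (log2 fold change 1.29, SE 0.23, adjusted p = 0.00231). Kcnh8, an ELK-type pore, was at 4.15 and 4.29 CPM at P21, 1.32 and 2.44 for adults and 1.55 and 2.58 for aged mice (log2 fold change 1.17, SE 0.28, adjusted p = 0.0113). For both genes each P21 section lay above each adult section. Kcne1l, an auxiliary subunit on the X chromosome, was at 4.90 and 4.70 CPM at P21, 2.53 and 3.1 for adults and 2.91 and 2.95 for aged mice (log2 fold change 0.77, SE 0.15, adjusted p = 0.00407). Kcnj5 was at 3.46 and 4.12 CPM at P21, 2.27 and 2.14 for adults and 2.62 and 4.62 for aged mice (log2 fold change 0.77, SE 0.25, adjusted p = 0.0422). It was higher than in adults at both other ages, with 1 of the aged sections close to the adult level.

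The 3 members that were lower at P21 were Kcnk13, Kcnab3 and Kcnh4. Kcnk13 was at 7.79 and 8.04 CPM at P21, 13.3 and 13.4 for adults and 9.17 and 8.71 for aged mice (log2 fold change −0.75, SE 0.10, adjusted p = 0.00036). Kcnab3, a Kv1 beta subunit, was at 47.8 and 40 CPM at P21, 81.6 and 62.7 for adults and 59.8 and 77.3 for aged mice (log2 fold change −0.72, SE 0.14, adjusted p = 0.00372). Kcnh4 was at 8.84 and 8.0 CPM at P21, 14.8 and 11.7 for adults and 9.93 and 10.4 for aged mice (log2 fold change −0.65, SE 0.12, adjusted p = 0.00334). In all 7 the P21 and adult sections did not overlap, as in 99.9% of all genes called. The count fell to 3 without the second P21 section or without the first adult section, each time with Kcnab3, Kcnh4, Kcnh8 and Kcnj5 lost. Kcnt2 and Kcnj5 were also lost when every region was given the same share of each section (log2 fold changes 0.98 and 0.86). The 5 oligodendrocyte markers were higher at P21, with a sum of 22999 and 24116 CPM against 11806 and 11638 in adults, and so were the 4 erythrocyte genes (2321 and 1312 against 326 and 171 CPM). Their part in the differences was not tested.

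Between aged and adult sections 11 of 83 members were called (13.3%), 9 higher and 2 lower, where 28.4% of all genes were called, 23.8% as higher and 4.68% as lower. Of the 9, the 3 under 1 CPM were members only through their UMIs in aged sections. Kcnk12, a silent leak-channel subunit, was at 28.6 and 28.8 CPM at P21, 30.0 and 30.0 for adults and 60.4 and 58.3 for aged mice (log2 fold change 0.98, SE 0.062, adjusted p = 2.19e-06). Kcnk4, the mechanosensitive TRAAK channel, was at 24.6 and 24.0 CPM at P21, 27.6 and 25.7 for adults and 54.8 and 38.9 for aged mice (log2 fold change 0.81, SE 0.12, adjusted p = 0.000325). Both aged sections lay above the other 4 for each gene, though they differed more from each other for Kcnk4. Kcna5 was at 5.56 and 5.85 CPM at P21, 4.70 and 4.27 for adults and 8.06 and 7.19 for aged mice (log2 fold change 0.76, SE 0.13, adjusted p = 0.000502). Kcnk6 was at 3.0 and 2.53 CPM at P21, 2.95 and 2.60 for adults and 4.78 and 4.83 for aged mice (log2 fold change 0.79, SE 0.15, adjusted p = 0.00104). Kcnj5 (log2 fold change 0.72) and Kcnt2 (0.71) were higher as at P21, from the same adult sections.

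The other 3 rises were of members close to 0. Kcna7, a Kv1 pore of skeletal muscle and heart, had 3 and 1 UMIs at P21, 1 and 2 for adults and 52 and 62 for aged mice, a ratio of 20.9 to adult (exact 95% counting interval 6.97 to 102.8). Kcnk15 had 8 and 0 UMIs at P21, 8 and 7 in adult and 63 and 64 in aged sections, a ratio of 4.65 (2.72 to 8.56). Kcnk7 had 10 and 15 against 37 and 71, a ratio of 2.37 (1.53 to 3.83). Of all genes under 1 CPM, 78.6% were called higher in aged sections, against 3.28% of genes at 10 CPM or more. Among members 3 of 8 under 1 CPM were called, all higher. At 1 to 10 CPM 4 of 16 were called higher and 1 lower, where 12.8% of all genes were higher and 8.84% lower. At 10 CPM or more 2 of 59 were called higher and 1 lower.

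The members lower in aged sections were Kcnmb1 and Kcnh7. Kcnmb1 was at 2.22 and 2.55 CPM at P21, 2.95 and 2.60 for adults and 1.45 and 1.31 for aged mice (log2 fold change −1.01, SE 0.18, adjusted p = 0.000629). The 5 mural cell markers summed to 142 and 132 CPM in adult and 94.4 and 97.8 in aged sections, with 4 of 5 called lower, and their part was not tested. Kcnh7 was at 95.9 and 86.1 CPM at P21, 127 and 109 for adults and 70.1 and 83.3 for aged mice (log2 fold change −0.62, SE 0.099, adjusted p = 0.000405). Kcnh7 was no longer called under plain CPM (log2 fold change −0.51), without the first adult section or without the first aged section. In all 11 the aged and adult sections did not overlap, as in 99.9% of all genes called.

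**Figure D2:**
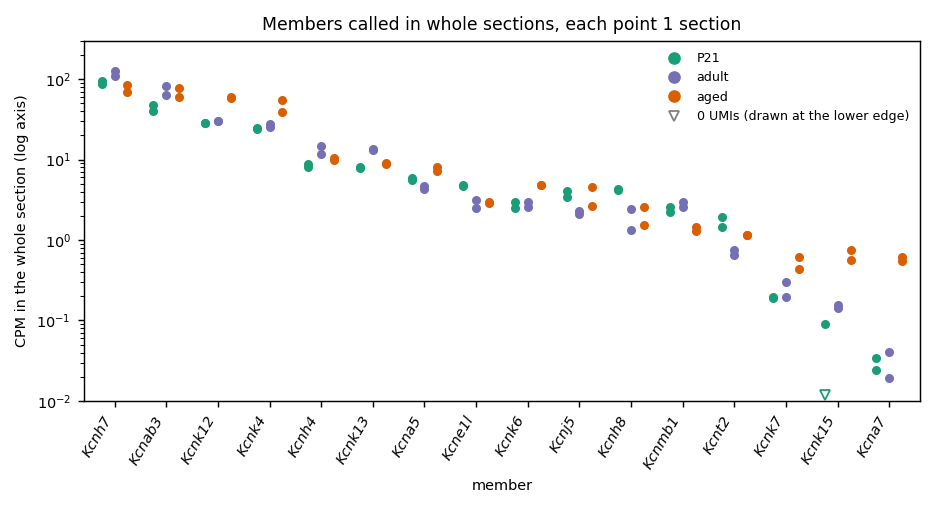
CPM in the whole section (log axis) of the 16 members called in either comparison, with 1 point per section coloured by age. Points of the called age and of the adult sections do not overlap, and the members at the right, Kcnk7, Kcnk15 and Kcna7, have fewer than 1 CPM in every section.

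Of the most abundant members of their groups, those that follow were not called in whole sections. Kcnab2 was at 476 and 512 CPM at P21, 580.2 and 563 for adults and 738 and 681 for aged mice. Kcnc2 was at 254 and 290.1 CPM at P21, 254 and 310.1 for adults and 385 and 256 for aged mice. The ages overlapped for Kcnc2, whereas those of Kcnab2 lay in the order of P21, adult and aged without overlap (fold of aged over adult 1.24). Kcnip2 was at 170.1 and 166 CPM at P21, 199 and 193 for adults and 144 and 148 for aged mice. Kcnh5 was at 91.9 and 90.3 CPM at P21, 104 and 98.5 for adults and 91.2 and 96.3 for aged mice. Kcnip2 was highest in adult sections, by less than the fold required. Kcnma1 was at 201 and 191 CPM at P21, 178 and 172 for adults and 216 and 223 for aged mice. Kcnj3, a G protein-gated pore, was at 132 and 131 CPM at P21, 178 and 166 for adults and 196 and 194 for aged mice. Kcnk1 was at 162 and 147 CPM at P21, 158 and 147 for adults and 145 and 145 for aged mice. Kcnj3 had its lowest values at P21, and P21 and adult sections overlapped for Kcnk1. The summed level of all members was 5188 and 5131 CPM at P21, 5698 and 5574 for adults and 5845 and 5537 for aged mice, with both P21 sections lowest.

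Within regions the test was limited to genes detected in over 10% of the spots, which kept 60 to 63 members in the 6 regions. In P21 vs. adult 2 of 61 members were called in the CTX, 1 of them higher, where 5.62% of all genes were called (3.58% higher, 2.04% lower). In the HP 2 of 62 were called, both higher (6.71% of all genes, 5.11% higher, 1.6% lower). In the TH 5 of 60 were called, 2 of them higher (7.02%, 4.28% higher, 2.74% lower). The only call among 62 members in the HY was a fall (3.8%, 1.96% higher, 1.84% lower). The 2 calls among 62 members in the STR were falls (4.27%, 2.92% higher, 1.35% lower). In the FT 5 of 62 were called, 1 of them higher (9.38%, 5.44% higher, 3.94% lower). The share of members was below that of all genes in 5 of the 6 regions and above it in the TH (8.33%). With 1 to 5 calls per region, this order is not read as a pattern. The TH count ran from 2 to 6 with 1 section left out. In some region 13 of 64 members (20.3%) were called, against 17.4% of genes. Kcnab3 fell furthest in the TH, at 49.0 and 44.1 CPM at P21 and 99.8 and 108 in adults (log2 fold change −1.15, SE 0.09, adjusted p = 2.15e-05). Kcnc1 had 217 and 226 CPM against 333 and 354 there (log2 fold change −0.64, SE 0.12, adjusted p = 0.00372). Kcnf1, a silent subunit, had 41.4 and 39.7 against 62.2 and 64.9 (log2 fold change −0.65, SE 0.11, adjusted p = 0.00274). The sections of the TH did not overlap for any of the 3, as in 100% of all genes called there.

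Higher in the TH at P21 were Kcnip1 (55.9 and 46.0 against 30.6 and 32.0 CPM, log2 fold change 0.71, SE 0.12, adjusted p = 0.00227) and Kcna3 (31.4 and 28.8 against 18.8 and 18.8 CPM, log2 fold change 0.68, SE 0.13, adjusted p = 0.00405). Kcnip1 was also higher in the HP, at 66.2 and 57.0 against 31.7 and 35.8 CPM. Kcnj12, a strong inward rectifier, was higher at P21 in the HP (39.7 and 31.5 against 18.3 and 19.0 CPM, log2 fold change 0.95, SE 0.16, adjusted p = 0.00183) and the FT (44.8 and 49.3 against 26.3 and 29.5 CPM, log2 fold change 0.74, SE 0.13, adjusted p = 0.000162). In the CTX the silent subunit Kcng1 was higher (31.4 and 33.2 against 17.9 and 20.7 CPM, log2 fold change 0.74, SE 0.13, adjusted p = 0.00104) and Kcns3 lower (8.38 and 9.11 against 15.5 and 10.9 CPM, log2 fold change −0.62, SE 0.17, adjusted p = 0.0188). For none of these did P21 and adult sections overlap, as in 99.9% of the P21 calls of all genes over the 6 regions. Without the first P21 section, the deeper of that age, no member was called in the HP and 2 in the TH. In the TH spots the HY panel was at 1308 and 1232 against 750 and 817 CPM, with 6 of 8 genes called higher. The TH panel itself was at 2935 and 3146 against 3820 and 4035, with 2 called lower. In the HP spots 6 of 8 genes of the TH panel and 4 of 8 of the HY panel were called higher. The HP panel had 1 of 8 higher and 3 lower there. The part of these panels in the TH and HP calls was not tested.

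Kcnk13, highest in the FT, was lower there at P21, at 15.1 and 16.6 CPM against 36 and 39.7 in adults and 29.7 and 31.2 in aged sections (log2 fold change −1.27, SE 0.14, adjusted p = 6.17e-07). It was also the member called in the HY (8.43 and 8.91 against 14.0 and 16.2 CPM, log2 fold change −0.80, SE 0.18, adjusted p = 0.0282), a call lost without either P21 section or either adult section. The oligodendrocyte markers, which fill the FT, had the opposite order, with 75732 and 90622 CPM at P21 and 39044 and 37435 in adults. The part of this or any other cell type in the Kcnk13 difference was not tested. Kcnh4 was lower in the FT as well (5.17 and 6.16 against 13.2 and 9.02 CPM, log2 fold change −1.01, SE 0.26, adjusted p = 0.00761), as were Kcns3 (−0.87) and the leak channel Kcnk10 (−0.60). The FT count was 3 without either P21 section or without the first adult section. In the STR Kcng2 (2.93 and 4.75 against 12.2 and 13.0 CPM, log2 fold change −1.87, SE 0.54, adjusted p = 0.0363) and Kcnh5 (80.3 and 95.9 against 116 and 143 CPM, log2 fold change −0.59, SE 0.16, adjusted p = 0.0228) were lower, and neither call held without either P21 section.

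**Figure D3:**
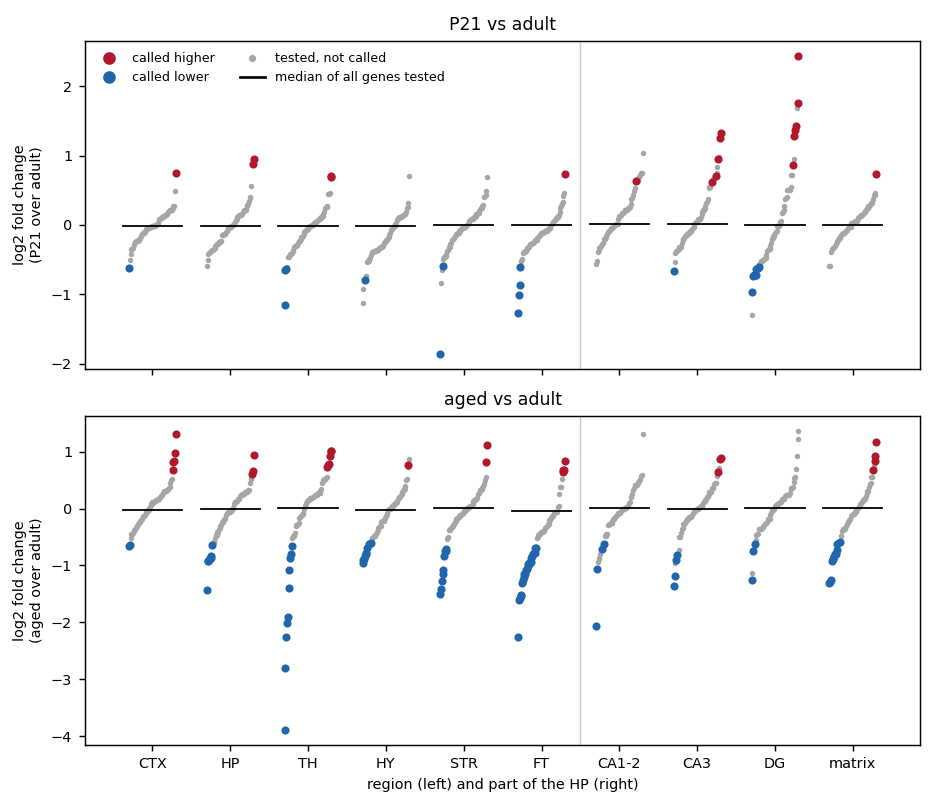
log2 fold change of each member tested, sorted within each region, for P21 over adult (upper) and aged over adult (lower), with red for members called higher, blue for members called lower and grey for the rest. The black bar is the median of all genes tested, which stays near 0. The deepest points are the falls in the aged TH.

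Of the parts of the HP, the DG held the most P21 calls, 14 of 61 members (23%) where 10.2% of all genes were called, with 6 members higher (6.74% of all genes) and 8 lower (3.46%). CA3 had 6 of 60 (3.61% of all genes), CA1-2 had 1 of 55 (2.37%) and the HP matrix 1 of 61 (5.29%). The rises in the DG were of auxiliary, silent and pore-forming subunits. Kcnip1 had 70.9 and 46.0 CPM at P21 and 15.3 and 20.2 in adults (log2 fold change 1.76, SE 0.29, adjusted p = 0.000656). Kcnt1, the main sodium-activated pore, had 29.5 and 31.0 against 10.8 and 11.5 CPM (log2 fold change 1.42, SE 0.30, adjusted p = 0.00423). Kcng4 had 21.7 and 9.39 against 4.47 and 1.73 CPM (log2 fold change 2.44, SE 0.63, adjusted p = 0.0157). Kcnt1 was close to the same in both P21 sections, while Kcng4 was more than 2 times higher in the first than in the second. Kcnq5 (1.37), Kcnj12 (1.28) and Kcnc2 (0.86) were the other 3 rises.

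The 8 falls included pores of G protein-gated channels. Kcnj3 had 207 and 215 CPM at P21 and 349 and 349 in adults (log2 fold change −0.73, SE 0.11, adjusted p = 0.000244), and Kcnj6, with which it forms G protein-gated channels, had 144 and 149 against 228 and 226 (log2 fold change −0.63, SE 0.12, adjusted p = 0.00147). Kcnd3, a Kv4 pore, had 184 and 132 against 259.7 and 278 (log2 fold change −0.74, SE 0.14, adjusted p = 0.00173). Kcnc4 had 101 and 107 against 168 and 173 (log2 fold change −0.72, SE 0.13, adjusted p = 0.00126). Kcnh3 (−0.96), Kcns2 (−0.72), Kcng1 (−0.63) and Kcnip3 (−0.60) completed the list. P21 and adult sections were apart in all 14, which was not counted over all genes in the DG. It held for 99.9% of the P21 calls of all genes in the 6 main regions.

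The DG rested on 37 to 55 spots per section. Its own panel of 6 markers was lower at P21, at 1412 and 1562 CPM against 2351 and 2354 in adults. Several panels of other zones were higher in the same spots, the habenula panel at 482 and 378 against 48.5 and 71.4 CPM and the TH panel at 384 and 271 against 138 and 156. The FT panel was at 9469 and 7377 against 2448 and 2086 CPM, with 8 of 8 genes called higher, and the VS panel at 3392 and 1457 against 198 and 104. The CA3 panel was not higher, at 290 and 290 against 304 and 303. The part of these panels in the member calls was not tested. The count was 3 without the first P21 section, 8 without the second, 7 without either adult section and 7 with DESeq2. Kcnj3, Kcnd3 and Kcnq5 were the calls left without the first P21 section. In CA3, where Kcnj12 (1.32), Kcnip1 (1.25), Kcng1, Kcnj4 and Kcnk1 were higher and Kcna4 lower, no call was left without that section, 2 without the first adult section and 1 without the second.

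**Figure D4:**
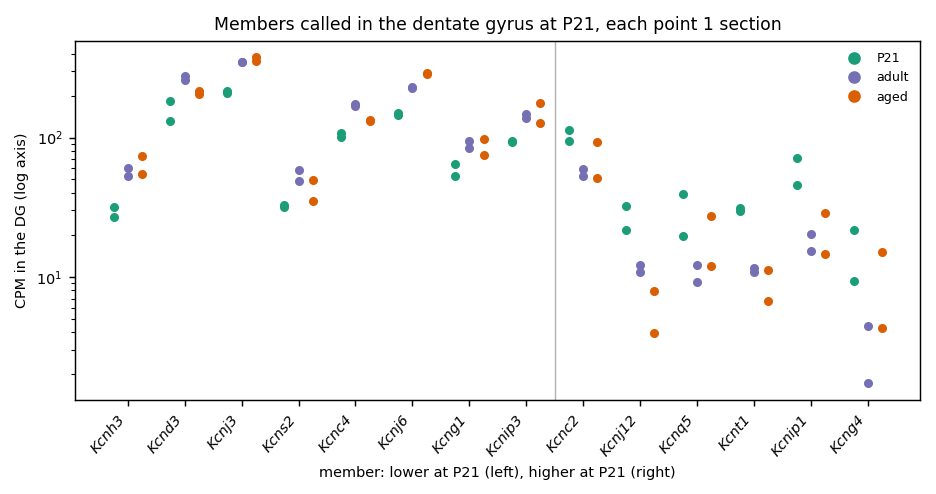
CPM in the DG (log axis) of the 14 members called in P21 vs. adult, with 1 point per section coloured by age, the 8 lower members to the left of the grey line and the 6 higher members to its right. P21 points lie apart from adult points in every column.

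Aged and adult regions differed for more members. In aged vs. adult 7 of 63 members were called in the CTX, 5 of them higher, where 10.4% of all genes were called (6.26% higher, 4.15% lower). In the HP 11 of 63 were called, 3 of them higher (11.8% of all genes, 5.73% higher, 6.07% lower), and in the TH 16 of 61, 6 of them higher (13.8%, 6.87% higher, 6.93% lower). In the HY 10 of 63 were called, 1 of them higher (11.3%, 6.44% higher, 4.89% lower), and in the STR 11 of 62, 2 of them higher (14.9%, 8.31% higher, 6.55% lower). In the FT 28 of 61 were called, 4 of them higher (27%, 12.6% higher, 14.4% lower). The share of members called was above that of all genes in each of the 6 regions. Over the 6 regions 44 of 64 members (68.8%) were called somewhere, against 42.1% of genes. Of the 44, 29 were called lower only, 12 higher only and 3 (Kcnf1, Kcnk4 and Kcnn3) in both directions in different regions. Calls in 3 or more regions were made for 13 members, Kcnab3, Kcnc4, Kcng1, Kcnh3, Kcnh4, Kcnh7, Kcnj4, Kcnj9, Kcnk12, Kcnk4, Kcnn3, Kcnq5 and Kcnv1. Neither the split by direction nor the calls in 3 or more regions were counted over all genes. All genes had 4772 falls and 5143 rises in the 6 regions together. In all of the regional calls the aged and adult sections did not overlap, as in 99.8% of the calls of all genes. Of the 62 falls none was in the leading region of the member, whereas 12 of the 21 rises were, a description in which the leading region rests on the same sections. Over all genes 4.17% of the falls and 35.1% of the rises were in the leading region of the gene, against 17% of all tests.

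The largest falls were in the TH. Kcnv1 had 19.3 and 20.2 CPM at P21, 22.3 and 18.2 for adults and 0.867 and 1.86 for aged mice (log2 fold change −3.89, SE 0.25, adjusted p = 3.09e-06). Kcnj4, the Kir2.3 pore, went from 28.8 and 28.4 CPM at P21 and 32.9 and 23.3 in adults to 4.73 and 3.31 in aged sections (log2 fold change −2.79, SE 0.21, adjusted p = 7.26e-06). Kcnip2 went from 65.9 and 71.7 CPM at P21 and 75.7 and 63.6 in adults to 11.5 and 17.4 in aged sections (log2 fold change −2.27, SE 0.17, adjusted p = 6.49e-06). In all 3 genes P21 and adult sections were alike and the aged sections far below. In the CTX none of the 3 was called, with 121 and 119 CPM in adult and 161 and 111 in aged sections for Kcnv1. The cortical values of Kcnj4 were 134 and 119 in adult and 145 and 127 in aged sections, and those of Kcnip2 239.7 and 220.3 and, in aged sections, 164 and 178. Kcng1 (−2.01), Kcnh1 (−1.90), Kcnh3 (−1.40), Kcnc4 (−1.07), Kcnq5 (−0.87), Kcnh7 (−0.79) and Kcnip1 (−0.65) were the other thalamic falls, by log2 fold change.

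All 10 members that fell in the aged TH were less abundant in the adult TH than in the mean of the other regions, as were 29 of the 61 members tested there, by the adult sections that also enter the comparison. Of all genes that fell in the aged TH 91.5% were less abundant there, against 61.3% of genes tested. The 8 cortical markers had a median log2 fold change of −2.68 in the aged TH, with 5 called lower and 1 higher, but summed to 288 and 275 CPM in adult and 288 and 269 in aged sections. The summed TH panel went from 3820.4 and 4035 CPM in adults to 5570.5 and 5719 in aged sections. The part of these shifts in the member calls was not tested.

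**Figure D5:**
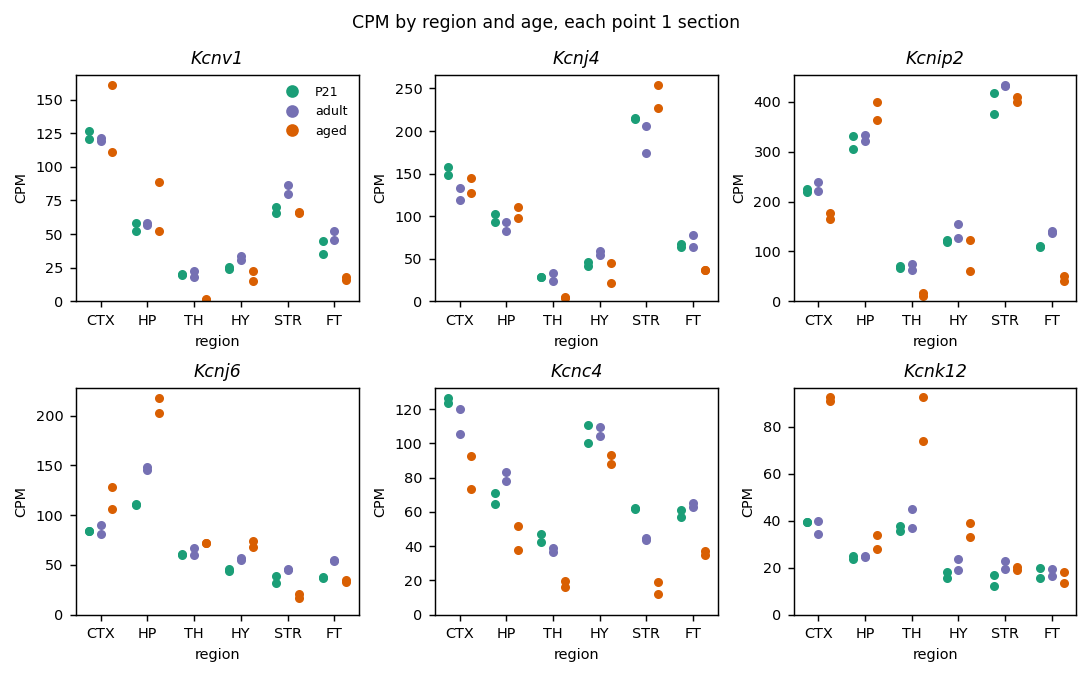
CPM of 6 members in the 6 main regions, with 1 point per section coloured by age and axes starting at 0. Aged points of Kcnv1, Kcnj4 and Kcnip2 lie near 0 in the TH, Kcnj6 is higher in the aged HP and lower in the aged STR, aged points of Kcnc4 lie below the adult points in each region, and Kcnk12 is higher in the aged CTX, TH and HY.

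Rises in the aged TH were of Kcnk4 (34.2 and 42.4 against 96.9 and 58.8 CPM, log2 fold change 1.02, SE 0.20, adjusted p = 0.00239), Kcnk12 (36.9 and 45.2 against 92.7 and 74.2 CPM, log2 fold change 1.02, SE 0.13, adjusted p = 0.000201) and Kcnf1 (62.2 and 64.9 against 133 and 108 CPM, log2 fold change 0.92, SE 0.11, adjusted p = 0.000114). Kcnn3 (0.79), Kcnc2 (0.76) and Kcnn2 (0.73) rose by less, and Kcnc2 was not called without the first adult or the first aged section. Kcnf1 had been lower in the TH at P21, so that its thalamic level followed the order of P21, adult and aged. Kcnk12 was higher in the CTX too, at 39.3 and 39.7 CPM at P21, 39.8 and 34.4 for adults and 92.6 and 90.9 for aged mice (log2 fold change 1.30, SE 0.094, adjusted p = 2.64e-07), and in the HY (log2 fold change 0.77, SE 0.16, adjusted p = 0.0076).

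The promoters of Kcnj4 and Kcnip2, which fell together in the aged TH, and of Kcnk12, which rose, are shown as the 250 bases before to 50 bases after the RefSeq transcript start (GRCm38.p6, all on the minus strand, written 5′ to 3′), with matches of GGGCGG on either strand in capitals. They lie at chr15:79505192-79505491, chr19:45816014-45816313 and chr17:87797945-87798244.
Kcnj4: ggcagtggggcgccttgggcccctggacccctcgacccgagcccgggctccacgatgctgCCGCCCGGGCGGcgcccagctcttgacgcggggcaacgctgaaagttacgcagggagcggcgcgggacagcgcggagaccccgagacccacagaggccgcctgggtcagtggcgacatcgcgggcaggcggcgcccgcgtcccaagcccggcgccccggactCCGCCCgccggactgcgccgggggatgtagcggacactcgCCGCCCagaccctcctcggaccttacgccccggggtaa
Kcnip2: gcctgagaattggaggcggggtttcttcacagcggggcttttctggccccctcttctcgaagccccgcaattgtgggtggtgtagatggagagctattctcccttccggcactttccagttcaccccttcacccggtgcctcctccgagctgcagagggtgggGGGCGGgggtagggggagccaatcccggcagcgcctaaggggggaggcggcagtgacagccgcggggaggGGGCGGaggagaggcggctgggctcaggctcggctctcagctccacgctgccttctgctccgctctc
Kcnk12: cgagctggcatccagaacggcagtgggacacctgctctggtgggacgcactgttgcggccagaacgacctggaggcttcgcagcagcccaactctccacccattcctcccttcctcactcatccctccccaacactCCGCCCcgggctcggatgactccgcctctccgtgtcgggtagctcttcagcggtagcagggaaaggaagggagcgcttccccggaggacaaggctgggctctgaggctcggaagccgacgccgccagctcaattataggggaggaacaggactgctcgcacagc
This GC box, read by Sp1-type factors, matched 4 times in the promoter of Kcnj4, 2 times in that of Kcnip2 and 1 time in that of Kcnk12, and is present in 35.7% of 32851 mouse promoters of this length. Neither TATAAA (13.6% of promoters) nor TGACGTCA, the cAMP response element (1.79%), was in any of the 3 windows on either strand, and CCAAT (37.4%) was in that of Kcnip2, where it matched 2 times. Of the promoters of 68 members in the table, 48.4% held the GC box and 5.38% TATAAA. A match is a description of these letters and not of a bound site.

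In the CTX the other rises included Kcnk4 (42.3 and 32.1 against 83.4 and 64.4 CPM, log2 fold change 0.98, SE 0.13, adjusted p = 5.79e-05), Kcns1 (40.3 and 28.4 against 58.3 and 64.4 CPM, log2 fold change 0.83, SE 0.13, adjusted p = 0.000166) and Kcnip3 (0.67). All 5 cortical rises, Kcnk12 included, were of members whose leading region is the CTX. This is a description, since the leading region rests on the same sections, aged ones included. Over all genes 11.4% of cortical rises were of genes led by the CTX, against 11.1% of genes tested there. Of the 83 members 24 were led by the CTX. The 2 falls were of Kcnj2, the Kir2.1 pore (38.6 and 34.6 against 24.0 and 22.8 CPM, log2 fold change −0.65, SE 0.11, adjusted p = 0.000322), and Kcna4, a Kv1 pore with fast inactivation (45.0 and 42.9 against 29.3 and 27.1 CPM, log2 fold change −0.64, SE 0.095, adjusted p = 0.000127). In the HP the G protein-gated Kcnj9 fell from 123 and 118 to 56.7 and 69.7 CPM (log2 fold change −0.92, SE 0.11, adjusted p = 8.73e-05), Kcnt1 from 34.6 and 29.9 to 20.7 and 13.9 (log2 fold change −0.92, SE 0.17, adjusted p = 0.00212) and Kcnh4 from 7.65 and 5.29 to 1.97 and 2.68 (log2 fold change −1.44, SE 0.31, adjusted p = 0.00441). Kcnab2 rose in the HP from 922 and 928 to 1524 and 1387 CPM (log2 fold change 0.65, SE 0.088, adjusted p = 0.000247), as did Kcnk4 (0.94) and Kcng2 (0.61). Of the parts of the HP, these rises were called in the matrix only. Kcnab2 was higher in the other parts too, but missed the required fold. Its fold was 1.497 in CA1-2, 1.353 in CA3 and 1.468 in the DG, each with an adjusted p below 0.05. The HP count of 11 rose to 18 without the second aged section, and none of the 3 rises was called without the first. In the same spots the CTX panel had 5 of 8 genes called lower (median log2 fold change −1.24, sums of 319 and 278 CPM in adult and 150.3 and 139 in aged sections). The FT panel had 8 of 8 called lower, with sums of 6668 and 5944 CPM in adult and 3447 and 2812 in aged sections. The matrix held 238 of 352 and 281 of 423 HP spots in adult sections and 129 of 285 and 112 of 240 in aged sections. In the matrix the CA3 panel went from 597 and 729 CPM to 1959 and 1511, with 3 of 4 genes tested called higher and 0 lower. The part of these shifts in the HP calls was not tested.

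Kcnj9 also fell in CA1-2 (127 and 132 to 58.2 and 64.6 CPM, log2 fold change −1.06, SE 0.17, adjusted p = 8.38e-05) and CA3 (−0.82), and Kcnc4 in CA1-2 (20.4 and 17.9 to 3.07 and 5.29 CPM, log2 fold change −2.07, SE 0.50, adjusted p = 0.00765) and CA3 (−1.35). Kcnj9 was called lower in the DG (−0.63) and the matrix as well, and Kcnc4 in the matrix. Calls in the parts of the HP were 4 of 55 in CA1-2 (7.29% of all genes), 7 of 60 in CA3 (8.49%), 3 of 61 in the DG (7.13%) and 16 of 60 in the matrix (16.3%). In CA3 Kcnj6 (128 and 117 to 208 and 175 CPM, log2 fold change 0.65, SE 0.12, adjusted p = 0.000142), Kcnj4 (0.88) and Kcnk2, the TREK-1 leak channel (0.89), were higher. No DG call was left without the first adult section, and 11 were made there without the second aged section. The count in CA1-2 was 2 without the first adult section and 1 without the second, and that in CA3 was 4 without the second.

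In the STR Kcnc4 fell from 43.8 and 44.8 to 12.0 and 19.0 CPM (log2 fold change −1.49, SE 0.20, adjusted p = 4.97e-06), Kcnh7 from 89.0 and 72.9 to 30.6 and 30.1 (log2 fold change −1.42, SE 0.14, adjusted p = 1.21e-07) and Kcnj6 from 44.7 and 45.4 to 20.5 and 16.8 (log2 fold change −1.28, SE 0.18, adjusted p = 1.28e-05). Kcna5, already highest in the STR, rose from 28.5 and 20.5 to 56.3 and 52.0 CPM (log2 fold change 1.13, SE 0.18, adjusted p = 4.76e-05), and Kcnn3 from 42.0 and 37.8 to 73.8 and 67.5 (log2 fold change 0.82, SE 0.14, adjusted p = 0.000165). Kcnk4 went the other way from its change in the CTX, HP and TH, at 17.2 and 13.0 in adults and 8.01 and 9.97 in aged sections (log2 fold change −0.75, SE 0.27, adjusted p = 0.0389), a call lost with DESeq2 and without the first adult or the first aged section. The CTX panel summed to 442 and 372 CPM in the adult STR and 159.6 and 196 in the aged STR. In the HY the falls were of Kcnh4, Kcng1, Kcnh3, Kcnj4, Kcnh7, Kcnv1, Kcnq5, Kcnq3 and Kcnab1, from −0.95 to −0.61 by log2 fold change. For Kcnh3 the aged HY sections differed between themselves, at 22.4 and 10.4 CPM against 29.7 and 28.9 in adults. The CTX panel in the HY had 6 of 8 genes called lower (median log2 fold change −1.45, sums of 300 and 237 CPM in adult and 146 and 170.4 in aged sections), and the TH panel had 5 of 8 lower and 1 higher. Their part in the HY calls was not tested. The HY count of 10 was 5 without the first P21 section or the second adult section, 6 without the first adult section and 15 without the first aged section.

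The FT had the most calls, 24 falls and 4 rises, where 14.4% of all genes fell and 12.6% rose. Kcnip2 fell from 141 and 137 to 40.8 and 50.3 CPM (log2 fold change −1.61, SE 0.10, adjusted p = 7.33e-11). Kcnh4 fell from 13.2 and 9.02 to 2.57 and 2.03 (log2 fold change −2.27, SE 0.31, adjusted p = 4.16e-06). Kcng3, a silent subunit, fell from 14.3 and 15.9 to 4.75 and 5.35 (log2 fold change −1.57, SE 0.23, adjusted p = 7.76e-06). The pairs of values lay close together at each age, except those of Kcnh4 in adults. All 24 were less abundant in the adult FT than elsewhere, as were 56 of the 61 members tested. The falls ran through most groups and included Kcna4, Kcnab1 and Kcnab3 of Kv1, Kcnf1, Kcng1, Kcng3, Kcns2 and Kcnv1 of Kv2, Kcnc4 of Kv3, Kcnd3, Kcnip2 and Kcnip4 of Kv4, Kcnq5 of Kv7, Kcnh1, Kcnh3, Kcnh4, Kcnh5 and Kcnh7, the sodium-activated Kcnt1, and the inward rectifiers Kcnj4, Kcnj6 and Kcnj9. The rises were of Kcng4 (log2 fold change 0.84, SE 0.26, adjusted p = 0.0107), Kcnn2 (log2 fold change 0.68, SE 0.10, adjusted p = 1.21e-05), Kcnj8, the pore of vascular ATP-sensitive channels (log2 fold change 0.68, SE 0.23, adjusted p = 0.0157), and Kcna1 (log2 fold change 0.64, SE 0.11, adjusted p = 4.52e-05), none of them called without the second adult section.

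Neuronal markers in the FT moved the same way as most members. The 6 neuronal genes summed to 4071 and 3805 CPM in adult and 2077 and 2040.5 in aged sections, with 3 of 6 called lower, and the CTX panel went from 399 and 323 to 142 and 146 CPM. The 5 microglial genes went from 388 and 418 to 1092 and 1162 CPM, with 4 of 5 called higher. Their part in the member calls was not tested. With the FT limited to spots surrounded by FT spots 36 of 60 members were called, 32 of them lower, where 32.5% of all genes were called (16.1% higher, 16.4% lower). The summed level of all members in the FT was 3987 and 3715 CPM for adults and 2985 and 2945 for aged mice, while in the TH it was 6043 and 6377 for adults and 8085 and 7124 for aged mice.

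Whether an age difference depended on the region was tested in 1 model of all 36 section-by-region sums, with the section as a block, so that a shift of a gene shared by all regions of a section does not enter. In aged vs. adult 52 of 64 members (81.2%) had a region-by-age interaction, against 47.7% of genes, and without the FT 38 of 64 (59.4%) against 24.7%. Among the smallest adjusted p were those of Kcnj6 (1.76e-10), Kcnv1 (4.75e-10), Kcnj4 (2.03e-09) and Kcnj3 (1.03e-07). Kcnj6 had 148 and 146 CPM in the adult HP and 218 and 203 in the aged HP, against a fall in the STR. Kcnj3 had 225 and 192 CPM in the adult CTX and 252 and 261 in the aged CTX, but 101 and 88.5 in the adult FT and 63.5 and 69.0 in the aged FT. In both genes the aged sections were above the adult sections in the first region named and below them in the second.

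In P21 vs. adult 9 of 64 members (14.1%) had an interaction, close to the 11.9% of all genes, and 4 of 64 without the FT (6.39% of all genes). The smallest adjusted p were those of Kcna3 (0.00322), Kcnj6 (0.00448), Kcnj2 (0.00616), Kcnk1 (0.0107) and Kcnj12 (0.0193). Kcna3, higher in the TH at P21, had 66.1 and 73.2 CPM in the HY at P21 and 53.7 and 72.4 in that of adults. Kcnj2 had 62.1 and 64.6 CPM in the STR at P21 and 73.2 and 70.8 in adults, but 39.0 and 46.1 in the CTX at P21 and 38.6 and 34.6 in adults. Kcnk1 had 198 and 214 CPM in the HP at P21 and 183 and 178 in adults, but 99.0 and 96.6 in the HY at P21 and 137 and 106 in adults. Kcnj2 and Kcnk1 thus lay on opposite sides of the adult values in the pair of regions given, and Kcna3 overlapped with them in the HY. The count was 0 without the first P21 section or the second adult section, 1 without the second P21 section, 2 without the first adult section and 26 without either aged section.

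The spread over regions within a section went with these counts. The median coefficient of variation of members over the 6 regions was 40.6% and 42.2% at P21, 43.6% and 45.8% for adults and 61.3% and 62.7% for aged mice. Over all genes with as many UMIs it was 23%, 27%, 24.2%, 26.1%, 35.4% and 34.3% in the same order. Both aged sections were above the other 4 for members and for all genes.

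Genes whose products work with the channels were taken from a list of 30, of which 29 were counted. In whole sections 2 of 29 were called higher at P21 (Hcn4 and Lrrc55) and none lower. Hcn4, a pacemaker channel related to Kv channels, was at 13.4 and 13.9 CPM at P21, 6.78 and 6.87 for adults and 4.67 and 4.20 for aged mice. In aged sections the BK gamma subunits Lrrc26 and Lrrc52, both under 1 CPM, were higher and Hcn4 and Cntnap2 lower. Cntnap2, which gathers Kv1 channels beside the node, was at 28.1 and 35.4 CPM at P21, 21.2 and 25.0 for adults and 0.614 and 0.422 for aged mice. It fell in each of the 6 regions, with log2 fold changes from −5.0 to −6.03. The part of the probe design in this fall was not tested. In the aged TH 1 of 26 was higher, Dpp10, a Kv4 partner, and 2 lower, Cntnap2 among them. In the aged FT 2 of 25 were higher and 11 lower, with a median log2 fold change of −0.40, close to the −0.41 of the members tested there.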

How the data were processed

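Per the labels and the study's methods, 6 coronal sections (2 per age) were profiled with Visium probes for formalin-fixed tissue, and the authors aligned and counted reads with Space Ranger 2.0.0 (P21, adult) or 3.1.1 (aged). The deposited matrices hold raw UMI counts per gene and spot. The deposited Moran's I is a score per gene and section. Spots with under 500 UMIs or 250 genes were removed, which left 20336 spots and 42422997 to 106783660 UMIs per section.

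Spots were clustered (scanpy 1.11.5, Leiden 0.6, 10 principal components, 3000 variable genes without members or partner genes) and named by marker panels, since no spot annotation was used here, and names may differ from the study's. The counts of each section, or section and region, were summed and tested with edgeR 4.0.16 (R 4.3.3, TMM, quasi-likelihood F test, all 3 ages in 1 fit), with adjustment by Benjamini-Hochberg over all genes tested. Calls needed a fold above 1.5 as well as an adjusted p below 0.05. Regional tests kept genes found in more than 10% of spots. CPM were scaled by TMM in whole sections, regions and parts of the HP, and plain in other zones. The region-by-age interaction was tested on 36 sums with the section as a block. On simulated data for whole sections, made for 11340 genes found in at least 10% of spots, all genes changed by a fold of 2 were recovered (100%). In the STR 81.5% (P21) and 86.5% (aged) were recovered. Rarer genes, Kcnt2, Kcnh8, Kcne1l, Kcnj5 and Kcna7 among them, were tested in whole sections but not simulated. Per the labels the sections of an age are biological replicates. The p-values rest on 1 estimate per gene of the spread between such sections, shared by all 3 ages and moderated across genes. Intervals of counts cover counting error only.

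Members, the list of partner genes and marker lists were chosen with earlier results of these data known. Members given in full were the up to 8 largest rises and falls called per comparison of whole sections, the most abundant member of each group, the steepest leader of each region, up to 3 rises and falls per region and the 5 smallest interaction p. Other members, the parts of the HP and the promoters shown were picked after their values were seen. Some members and partner genes are counted but not reported here by name. Alternatives were DESeq2 1.42.0, plain CPM, other filters, other region definitions, equal region shares, a replicate block and leaving out each section.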

Additional observations from a re-analysis of the deposited data

Results flagged for a closer look

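The difference between ages was itself tested between regions, by the region-by-age interaction, and members with the smallest adjusted p in each comparison are given for a closer look. In aged vs. adult sections they were Kcnj6 (1.76e-10), Kcnv1 (4.75e-10), Kcnj4 (2.03e-09) and Kcnj3 (1.03e-07). In P21 vs. adult sections they were Kcna3 (0.00322), Kcnj6 (0.00448), Kcnj2 (0.00616), Kcnk1 (0.0107) and Kcnj12 (0.0193). Each of these 5 P21 results missed the threshold when the first P21 section or the second adult section was left out.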

How the results depend on the processing

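Under other settings that kept all sections, most values kept their side of the threshold. Of the counts of called members 106 were within 1.5 times the main count and 20 outside it. Of the values of single members 384 were on the same side of the threshold, 42 no longer past it and 1 reversed. Fits that left out a section are not in this tally, and a larger share of counts and single values moved in them. In P21 vs. adult the exceptions were as follows. DESeq2 called 0 members in the HY, STR, CA1-2 and HP matrix, 2 in the FT, 1 in CA3 and 7 in the DG. Regions from each section alone gave 0 in the HP and 0 in the HY, and spots inside a region gave 1 in the STR. In the interaction 4 remained without the FT. In aged vs. adult, regions from each section alone gave 12 in the CTX, 6 in the HP and 4 in the HY, and DESeq2 gave 1 in CA1-2, 3 in CA3 and 10 in the HP matrix. Kcns3 in the FT at P21 turned to a log2 fold change of 0.25 with regions from each section alone. The cause was not tested for any of these. Other definitions of regions were not run for the parts of the HP.

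Leaving out 1 section at a time gave these ranges for P21 and then aged vs. adult: whole sections 3 to 9 and 8 to 12, CTX 1 to 3 and 6 to 9, HP 0 to 3 and 8 to 18, TH 2 to 6 and 15 to 22, HY 0 to 5 and 5 to 15, STR 0 to 5 and 9 to 15, FT 3 to 5 and 25 to 28, CA1-2 0 to 1 and 1 to 6, CA3 0 to 6 and 4 to 8, DG 3 to 16 and 0 to 11, HP matrix 0 to 2 and 11 to 20, and the interaction 0 to 26 and 35 to 58. A lone section was assumed to vary like the other ages.

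Sections share replicate numbers across ages, and the labels do not say whether the numbers pair them. Deviations of same-numbered sections correlated at 0.0214, −0.0443 and −0.175. With 2 sections per age these values cannot show whether sections were processed in pairs, and sections were treated as unpaired. With the replicate block the count at P21 was 0 in the HY, 1 in the STR and 2 in the HP matrix, and the block moved no other count by over 1.5 times. The call rule leaves out differences under a fold of 1.5 whatever their p, 2 sections per age and few spots in the STR and the parts of the HP limit the precision, and members under 1 CPM rest on few UMIs.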
